A study of Rattus norvegicus with 14 samples.

Results

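Ribosomal proteins and translation factors were described at 74 genes of the 2993 named genes in a table of transcription start sites (TSSs) of rat Schwann cells. The members were the rows whose gene symbol names a ribosomal protein of the large or small subunit, a eukaryotic initiation factor or an elongation factor, and they held 208 of the 4993 TSSs. They comprised 24 large-subunit proteins, 18 small-subunit proteins, 22 initiation factors, 3 elongation factors and 7 kinases, other enzymes or binding proteins whose symbols begin in the same way. For each gene, the TSS with the highest mean in sciatic nerve was used (the main TSS), and the other TSSs served as a check. The authors had kept only TSSs within 1 kb of an H3K4me3 peak that overlaps a peak of SOX10, the transcription factor of the Schwann cell lineage, in sciatic nerve.

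Transcript 5′ ends were counted with Tn5Prime, a method that marks the 5′ end of an RNA by template switching and cuts the cDNA with the Tn5 transposase, and are given as RPM, reads scaled to a common library total. The 14 libraries fall into 5 groups. Sciatic nerve came from 2 independent nerves of untreated wild-type adult rats of 6 to 9 months and is a mixed tissue. Control and cAMP libraries (3 each) came from independent populations of wild-type primary rat Schwann cells, which were grown with neuregulin and forskolin, deprived of both, and kept in 5% fetal bovine serum. The cAMP groups received 250 µM CPT-cAMP, a cell-permeable cAMP analogue that drives these cells toward the myelinating state, renewed daily for 3 days, and the control groups received vehicle. Parental S16 cells, a rat Schwann cell line, were wild type and gave 2 RNA samples of 1 line. The 4 ΔSOX10 S16 libraries were each 1 clone with frameshift alleles at Sox10, made with 2 guide RNAs and labelled 1-1, 1-2, 2-1 and 2-2, and all S16 cells were kept in 10% serum. Recovered totals were 29895599 and 38377828 reads in nerve, 51438602 to 79940274 in the primary cells and 35087411 to 44237083 in the S16 cells. Reads were not marked with molecular identifiers, so that limits set from counts cover counting error only.

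The ribosome is built from a small subunit, which reads the messenger RNA, and a large subunit, which forms the peptide bond. Initiation factors bring the initiator tRNA, the messenger RNA and the small subunit together, and elongation factors deliver each aminoacyl-tRNA and move the ribosome along. Messages of ribosomal proteins and of several elongation factors are known to begin with a C followed by a run of pyrimidines, the 5′ terminal oligopyrimidine (TOP) tract, through which growth signals acting on mTORC1 set their translation. Schwann cells that form myelin make large amounts of a few myelin proteins. Ribosomal protein genes have many near-identical processed copies in mammalian genomes, so how reads were shared between a gene and its copies remains uncertain at each of them.

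The start sequences show the tract that many of the ribosomal protein genes carry. RefSeq promoters of the GRCr8 assembly were matched to 62 of the 74 members. The next lines give 5 bases before and 20 bases from the annotated start on, so that the start base is the sixth letter. Capitals mark a C followed by at least 4 bases that are each C or T, beginning within 5 bases of the annotated start. The first 5 are ribosomal proteins that rose with cAMP, and Rplp0 and Rps27 are ribosomal proteins that did not pass the test. Eef1a1 is an elongation factor whose main TSS rose, and the last 3 are initiation factors.
Rps18: ccgctCTCTCTTCCacaggaggcct
Rpl35: tctttCTCTCgaaccgggcggcctc
Rpl37a: tgcgtCTCTTCCTCTTCgggcttgg
Rps3a: tccgcCCTTTTggctctcagagcgg
Rpl31: tcgcgCCTTTCCTTTCCaacttggg
Rplp0: cacttCTCTCgccaggcgtcctcat
Rps27: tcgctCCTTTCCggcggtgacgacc
Eef1a1: cgttCTTTTTCgcaacgggtttgcc
Eif1b: gcgagaagccgcagcgccgccttcc
Eif4a2: tcgggcgctgagtgggttttcggat
Eif4g2: gccagcagcgagccggagctctatg
In GRCr8 they lie at chr20:4933740-4933764 on the plus strand (Rps18), chr3:43165902-43165926 on the minus strand (Rpl35), chr9:81748086-81748110 on the plus strand (Rpl37a), chr2:173827023-173827047 on the minus strand (Rps3a) and chr9:49143106-49143130 on the plus strand (Rpl31). The others lie at chr12:46718371-46718395 (Rplp0), chr2:177964587-177964611 (Rps27), chr8:88225050-88225074 (Eef1a1), chr11:91275304-91275328 (Eif4a2) and chr1:174628233-174628257 (Eif4g2) on the minus strand, and at chr8:129081153-129081177 on the plus strand (Eif1b). The deposited table uses the older build rn5, in which the main TSS of Rps18, for example, lies at chr20:7500460-7500538. No position was converted between the builds, so that a printed start need not be the main TSS whose fold change is given.

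A tract that began exactly at the annotated start was found at 14 of the 32 ribosomal protein promoters matched (43.8%) and at 0 of the 23 matched initiation and elongation factors. The same letters, read on the transcript strand, stood at the start of 722 of 27457 rat promoters (2.63%). With the start allowed to lie within 5 bases, the tract was found at 23 of 32 ribosomal proteins (71.9%), 4 of 20 initiation factors, 2 of 3 elongation factors and 0 of 7 of the other members, against 17.0% of all promoters. A match describes these letters in this window only.

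Levels were high among the ribosomal proteins and spanned a wide range among the factors. Among the main TSSs with the highest nerve means were those of Rpl13 (873 and 860 RPM in the 2 nerve libraries), Rpl35 (666 and 710 RPM), Rpl37a (650 and 674 RPM) and Rps18 (633 and 672 RPM), all proteins of the ribosome itself. The lowest of the ribosomal proteins were Rps24 (11.8 and 10.5 RPM) and Rpl4 (6.12 and 5.37 RPM), so that the table's TSS for these genes carried few reads. Among the factors, Eif5a, a factor also needed in elongation and termination, had 300 and 362 RPM in nerve, whereas Eif4a1, the main helicase of cap-dependent initiation, had 3.58 and 4.46 RPM. A TSS's level is the level of its own 5′ ends, not of all transcripts of the gene.

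Summed over the 42 ribosomal proteins, the main TSSs took 13474 and 13916 RPM in nerve, 36943 to 37883 RPM in control, 48229 to 49871 RPM in cAMP, 43542 and 47274 RPM in parental S16 cells and 38538 to 45067 RPM in the ΔSOX10 clones. The 3 cAMP sums lay above all 3 control sums, and the parental and ΔSOX10 sums overlapped. In the control cells, ribosomal proteins took 3.78%, 3.69% and 3.79% of all reads, and in the cAMP cells 4.99%, 4.92% and 4.82%. Sums of the 22 initiation factors were 3509 ± 55.5 RPM in control and 3564 ± 177 RPM in cAMP (SD, n = 3), a difference smaller than the spread in cAMP. The 3 elongation factors summed to 398 ± 8.78 RPM in control and 536 ± 62.4 RPM in cAMP (SD, n = 3). The 7 other members summed to 152 ± 10.5 RPM and 170 ± 15.3 RPM. RPM gives a share of a library, so that in these bulk samples a change in the RNA of each cell and a change in the mix of cells cannot be told apart.

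**Figure D1:**
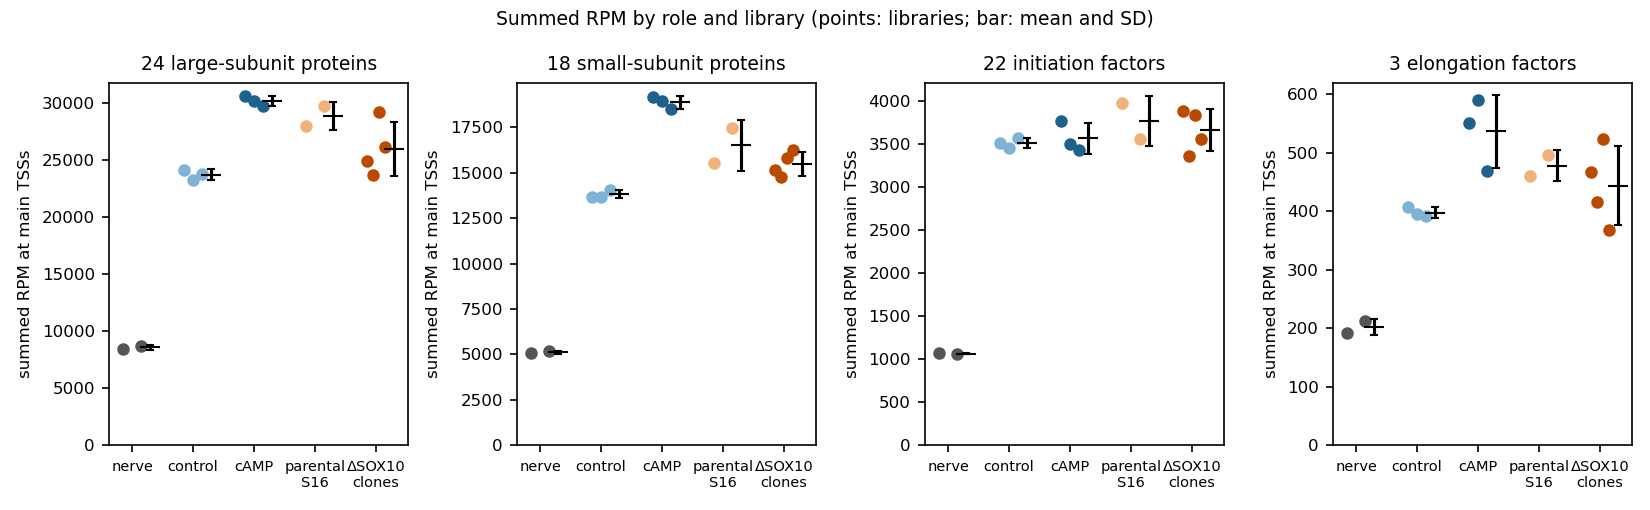
Summed RPM (linear axes from 0) at the main TSSs of 4 role groups in each library, with points for libraries and a bar for the group mean and SD beside them. The large-subunit sums rose from 23746 ± 458 RPM in control to 30210 ± 470 RPM in cAMP and the small-subunit sums from 13812 ± 221 to 18884 ± 358 RPM (SD, n = 3), while the initiation factors stayed at 3509 and 3564 RPM.

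Cultured cells carried more ribosomal protein 5′ ends in RPM than nerve. The control mean was above the nerve mean at 41 of 42 ribosomal proteins, with a median ratio of 2.58, and over all 2993 genes it was above at 2211 with a median ratio of 1.89. The parental S16 mean was above the nerve mean at 41 of 42, with a median ratio of 2.99, against a median of 1.54 over all genes. The range among ribosomal proteins in control cells ran from a ratio of 0.54 at Rpl4 to 7.50 at Rplp0, the scaffold of the ribosomal stalk, which had 250 and 255 RPM in nerve and 1849 to 1919 RPM in control. Among the initiation factors, Eif4g2, a relative of the scaffold eIF4G that lacks its site for the cap-binding protein eIF4E, had the widest ratio (23.0 and 27.8 RPM in nerve, 261 to 262 RPM in control). No test was made, because the main TSS was chosen by its level in nerve. Cell type markers differed as well. The 8 Schwann cell markers with a row summed to 58995 and 60657 RPM in nerve and to 5526, 5375 and 5500 RPM in control. Itgb4, a perineurial marker, had means of 48.9 RPM in nerve and 1.08 RPM in control. The fibroblast markers with a row went opposite ways. Col1a1, which Schwann cells also make, had means of 103 and 857 RPM, and Pdgfra 3.11 and 0 RPM. The part of these differences in the ratios was not tested. Nerve and S16 libraries were sequenced on the same instrument and the primary cells on another, so that instrument and sample type cannot be told apart between control and nerve.

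The main TSS held most of a gene's reads in the table. At the 47 genes with more than 1 TSS, it held over 90% of the gene's control RPM at 41. Eef1a1 had 15 TSSs, Rplp0 had 12 and Eef1b2 and Eif5 had 7 each. At Eef1a1, which delivers aminoacyl-tRNA to the ribosome, the main TSS held only 41.6% of the gene's RPM in control and 43.9% in cAMP. Over all members the main TSSs held 92.6% ± 0.779 of the RPM in nerve (SD, n = 2) and 97.5% ± 0.107 in control (SD, n = 3). The median width of the members' main TSSs was 76 bp against 77 bp over all genes. A SOX10 peak overlapped the main TSS at 36 of 42 ribosomal proteins (85.7%) and 18 of 25 initiation and elongation factors (72.0%), against 70.0% of all 2993 genes. The share with an overlapping H3K4me3 peak was 95.2% among ribosomal proteins and 96.0% among all genes. A nearby SOX10 peak was the authors' condition for entering the table, so that these shares describe position only.

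The comparison of cAMP with control asked which TSSs change as primary Schwann cells differentiate. Most ribosomal proteins rose by a small amount. Of the 42 ribosomal proteins, 32 rose, none fell and 10 did not pass the test (limma on log2(RPM + 1), Benjamini-Hochberg adjusted p under 0.05 over all 4119 TSSs tested), where 13.5% of all 2832 genes tested were called higher and 13.9% lower. The median log2 fold change of the ribosomal proteins was 0.32, with quartiles of 0.23 and 0.46, against −0.03 over all genes tested. At 34 of 42 ribosomal proteins every cAMP library lay above every control library, which held for 19.5% of all genes tested. The small subunit had 15 of 18 called higher with a median of 0.38, and the large subunit 17 of 24 with a median of 0.31.

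Other genes of similar level were called in both directions. Of 53 members with a mean of at least 100 RPM over these 6 libraries, 35 were called higher and 3 lower, whereas of 562 other genes at that level 21.7% were called higher (122) and 151 were called lower, and their median log2 fold change was −0.04. The 20 tested members under 100 RPM had 2 called higher and 3 lower.

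Rps18, a protein of the small-subunit head, had 2226, 2201 and 2182 RPM in control and 3798, 4129 and 4041 RPM in cAMP. It had the highest log2 fold change of the ribosomal proteins, 0.86 ± 0.05 (SE, limma adjusted p = 7.2e-12). The groups lay far apart, and the ratio of the means was 1.81. Rpl7, a large-subunit protein, went from 1276, 1242 and 1215 RPM to 2093, 2092 and 1970 RPM (log2 fold change 0.72 ± 0.06 SE, limma adjusted p = 1.5e-09). Rps27l, the paralogue of Rps27 that is known as a target of p53, had 389, 353 and 348 RPM in control and 628, 580 and 586 RPM in cAMP (0.72 ± 0.08 SE, limma adjusted p = 6.4e-07). Rps27 itself had 1231, 1321 and 1319 RPM in control and 1331, 1495 and 1564 RPM in cAMP and narrowly missed the threshold (0.18 ± 0.07 SE, limma adjusted p = 0.053), although its groups did not overlap.

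The other members named above as abundant in nerve also rose. Rpl35, which lies at the exit of the peptide tunnel, went from 1615, 1547 and 1530 RPM to 2482, 2195 and 2179 RPM (log2 fold change 0.54 ± 0.06 SE, limma adjusted p = 2.9e-07). Rpl13 went from 2153 to 2526 RPM to 2647 to 3078 RPM (0.32 ± 0.06 SE), and Rpl37a from 1720 to 1738 RPM to 2016 to 2226 RPM (0.29 ± 0.05 SE). At all 3 the groups lay apart. Rps3a (0.58), Rps27a, which is made as a fusion with ubiquitin (0.55), Rpl29 (0.49), Rps26 (0.46) and Rpl23a (0.46) were among the next in log2 fold change. The summed rise of 11540 RPM was spread over the family, since Rps18 gave 15.5% of it and the first 5 genes 40.2%, and without Rps18 the cAMP sum was still 1.28 times the control sum.

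The 10 ribosomal proteins that did not pass differed in level and in fold change. Rplp0 had 1849 to 1919 RPM in control and 1911 to 1995 RPM in cAMP, which overlapped (log2 fold change 0.05, 95% interval −0.06 to 0.16). Its interval lies below the median of the family. Rps21 (0.12 ± 0.08 SE), Rpl15 (0.16 ± 0.07), Rpl27 (0.18 ± 0.07), Rpl37 (0.19 ± 0.09) and Rps27 were above 0 but did not pass, with limma adjusted p of 0.31, 0.084, 0.055, 0.17 and 0.053. Rpl4 (0.21 ± 0.52 SE) and Rps24 (0.50 ± 0.34 SE) were too low, at 2.27 to 4.06 and 8.07 to 14.4 RPM in control, for a change of the family's size to be detected. Rpl3l and Rpl22l1 were the only ribosomal proteins with a fold change below 0. Rpl3l, the paralogue of Rpl3 known from striated muscle, had 130, 144 and 150 RPM in control and 134, 140 and 139 RPM in cAMP (−0.04 ± 0.12 SE). Rpl22l1, the paralogue of Rpl22, had 173 to 193 RPM in control and 152 to 175 RPM in cAMP (−0.17 ± 0.11 SE, limma adjusted p = 0.32). None of the 3 muscle markers listed (Acta1, Myh4 and Ckm) had a row.

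**Figure D2:**
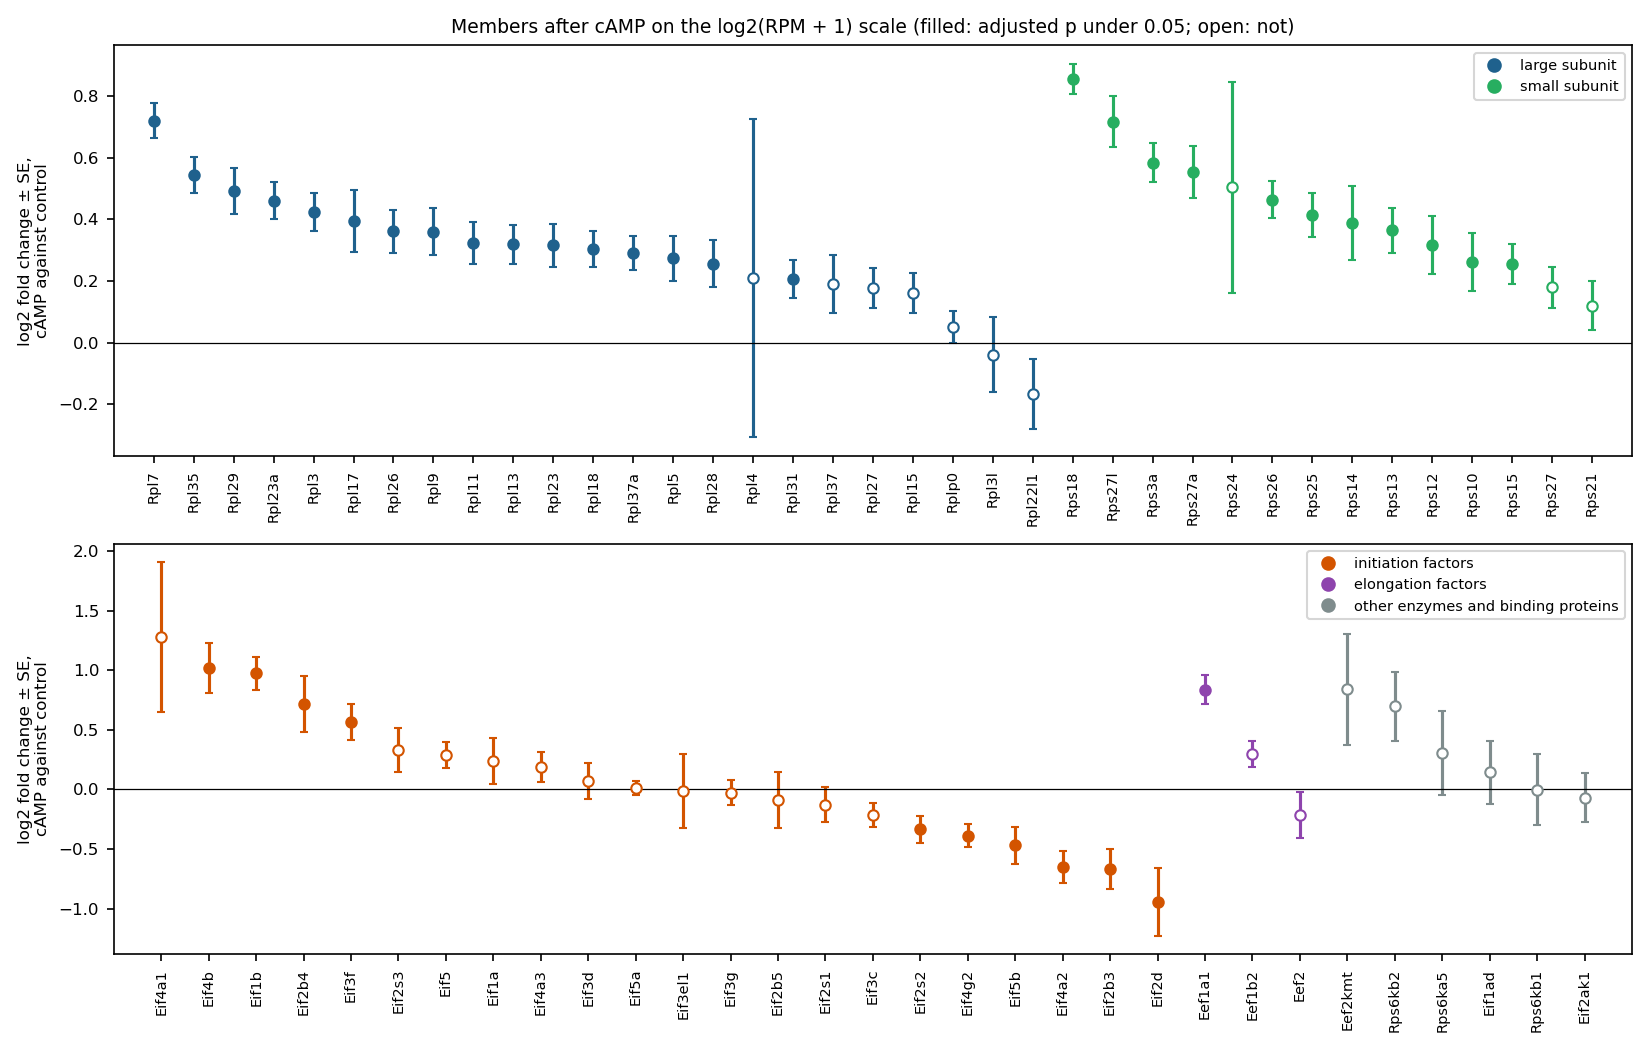
Log2 fold change of cAMP against control with its standard error for 68 of the 73 members tested, on the log2(RPM + 1) scale, grouped by role and ordered within it, with filled points for adjusted p under 0.05. Filled ribosomal proteins all lie above 0, from Rpl31 at 0.21 to Rps18 at 0.86, while filled initiation factors lie on both sides, from Eif2d at −0.94 to Eif4b at 1.02.

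Ribosomal proteins that rose were found both with and without the oligopyrimidine tract. With a tract exactly at the annotated start, 11 of 14 were called higher with a median log2 fold change of 0.33, and without one 13 of 18 with a median of 0.32. Outside the members, 55 tested genes had a tract at the start, of which 7 were called higher and 8 lower (12.7% higher), against 11.9% higher among the 2162 genes without one. Among 9 other genes known for TOP messages or for products that join the ribosome, 4 rose and none fell, where 13.5% of all genes tested were called higher and 13.9% lower. Among the 4 that rose were Fau (1132 ± 34.3 to 1282 ± 77.3 RPM, SD, n = 3), the nucleolar chaperone Npm1 (446 ± 32.5 to 567 ± 20.1 RPM) and Hnrnpa1 (104 ± 5.60 to 229 ± 29.4 RPM).

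Of the 3 elongation factors, 1 rose at its main TSS, where 13.5% of all genes tested were called higher. Eef1a1 had 123, 118 and 115 RPM in control and 205, 238 and 198 RPM in cAMP, a ratio of 1.80 (log2 fold change 0.84 ± 0.12 SE, limma adjusted p = 1.1e-05). Of its other TSSs, 3 were also called higher. Eef1b2, a subunit of the exchange factor that recharges eEF1A, had 213 to 226 RPM in control and 231 to 294 RPM in cAMP, which did not overlap, and narrowly missed the threshold (0.30 ± 0.11 SE, limma adjusted p = 0.052). One of its other TSSs passed (1.31 ± 0.22 SE, limma adjusted p = 9.4e-05). Eef2, which moves the ribosome by 1 codon, had 58.5, 61.2 and 63.0 RPM in control and 62.4, 58.6 and 38.8 RPM in cAMP (−0.22 ± 0.19 SE, limma adjusted p = 0.48). Its main TSS also lay downstream of its other TSSs.

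Initiation factors went both ways. Of 22 tested, 4 rose, 6 fell and 12 did not pass, and their median log2 fold change was −0.0002, where 13.5% of all genes tested were called higher and 13.9% lower. Eif1b, a paralogue of the factor that guards start-codon choice, had 145, 130 and 132 RPM in control and 348, 251 and 218 RPM in cAMP (0.97 ± 0.14 SE, limma adjusted p = 1.3e-05). Eif4b, which stimulates the helicase eIF4A, went from 35.5, 30.2 and 23.6 RPM to 63.8, 64.0 and 54.4 RPM (1.02 ± 0.21 SE, limma adjusted p = 0.00083). The ratio of the means was 2.01 at Eif1b and 2.04 at Eif4b, and at both genes the groups lay apart. Eif3f, a subunit of the large eIF3 complex, had 121, 160 and 97.0 RPM in control and 200, 188 and 163 RPM in cAMP (0.57 ± 0.15 SE, limma adjusted p = 0.0079). Eif2b4, a subunit of eIF2B, rose from 18.7 to 25.3 RPM to 35.2 to 39.2 RPM (0.72 ± 0.24 SE, limma adjusted p = 0.031).

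The factors that fell included Eif2s2 of eIF2 and Eif2b3 of eIF2B, whereas the other subunits tested of these complexes did not fall. Eif4a2, a paralogue of the helicase eIF4A, went from 121, 131 and 136 RPM in control to 77.4, 79.2 and 89.4 RPM in cAMP (log2 fold change −0.65 ± 0.14 SE, limma adjusted p = 0.0011). Eif4g2 had 261, 261 and 262 RPM in control and 206, 188 and 205 RPM in cAMP (−0.39 ± 0.10 SE, limma adjusted p = 0.0065). Eif2b3, another subunit of eIF2B, the exchange factor that reloads eIF2 with GTP, fell from 74.7, 89.2 and 78.7 RPM to 51.3, 54.4 and 45.9 RPM (−0.67 ± 0.17 SE, limma adjusted p = 0.0050). Eif2b4 and Eif2b3 thus moved in opposite directions, while the catalytic subunit Eif2b5 did not pass (−0.09 ± 0.23 SE). Eif2s2, a subunit of eIF2 itself, had 229, 232 and 204 RPM in control and 161, 171 and 194 RPM in cAMP (−0.33 ± 0.11 SE, limma adjusted p = 0.034), and the other subunits Eif2s1 (−0.13 ± 0.15 SE) and Eif2s3 (0.33 ± 0.18 SE) did not pass. Eif5b, the GTPase that joins the subunits, had 96.0 to 116 RPM in control and 63.7 to 85.6 RPM in cAMP (−0.47 ± 0.15 SE, limma adjusted p = 0.030). Eif2d, which can bring initiator tRNA without eIF2, had 33.4, 40.6 and 22.6 RPM in control and 18.7, 15.1 and 13.99 RPM in cAMP (−0.94 ± 0.28 SE, limma adjusted p = 0.018). At all 6 factors the cAMP libraries lay below the control libraries, as they did at 597 of all 2832 genes tested. The 6 were picked by the test on these same libraries, so this adds no separate support.

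**Figure D3:**
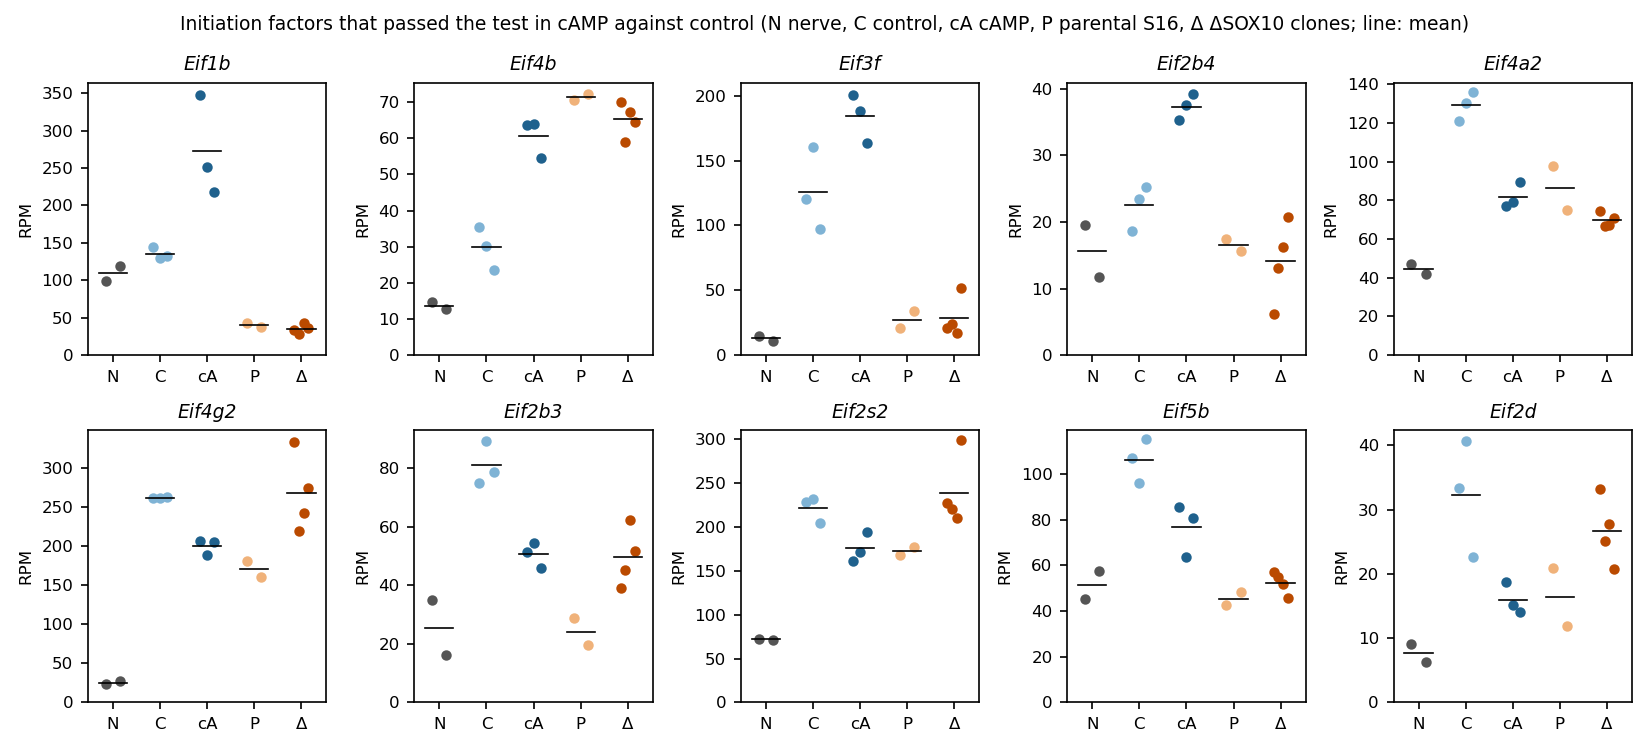
RPM (linear axes from 0) of the 10 initiation factors that passed the test in cAMP against control, for every library of the 5 groups, with a line at each group mean. In the upper row Eif1b, Eif4b, Eif3f and Eif2b4 are higher in cAMP than in control and Eif4a2 lower, and in the lower row Eif4g2, Eif2b3, Eif2s2, Eif5b and Eif2d are lower, with Eif4g2 at 261 to 262 RPM in control and 188 to 206 RPM in cAMP.

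The remaining initiation factors did not pass. Eif5a was at 1111 to 1160.4 RPM in control and 1139.5 to 1141 RPM in cAMP, with a log2 fold change of 0.01 and a 95% interval of −0.11 to 0.14 that does not reach the median of the ribosomal proteins. Eif5, which triggers GTP hydrolysis on eIF2, had 176 to 206 RPM in control and 227 to 239 RPM in cAMP, which did not overlap (0.29 ± 0.11 SE, limma adjusted p = 0.053). The eIF3 subunits Eif3c (−0.21 ± 0.10 SE), Eif3d (0.07 ± 0.15) and Eif3g (−0.03 ± 0.11) and the scanning factor Eif1a (0.23 ± 0.19) did not pass. Eif4a3, a core protein of the exon junction complex, had a log2 fold change of 0.19 ± 0.13 (SE). The row named Eif3el1 had −0.01 ± 0.31 (SE), and its chromosome in the table differs from that of this symbol in RefSeq, as for no other member. Eif4a1 was listed at 0 in 2 control libraries and had 1.46 RPM in the third, against 4.64, 1.48 and 1.51 RPM in cAMP, which is too low for a call (1.28 ± 0.63 SE, limma adjusted p = 0.16).

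None of the 7 members that only share the names passed the test in this comparison. The S6 kinases, which act downstream of mTORC1, had log2 fold changes of −0.003 ± 0.30 (Rps6kb1) and 0.70 ± 0.29 (Rps6kb2, limma adjusted p = 0.088, both SE). Rps6ka5, a kinase of histone H3 and CREB also known as MSK1, had 0.31 ± 0.36, the heme-regulated eIF2 kinase Eif2ak1 −0.07 ± 0.20, the eEF2 methyltransferase Eef2kmt 0.84 ± 0.46 and Eif1ad 0.14 ± 0.27 (SE). Eif4enif1, which carries the cap-binding protein eIF4E into the nucleus, was at 0 in all 12 culture libraries, where 3 reads would be 0.0375 to 0.0855 RPM, and had 1.77 and 5.11 RPM in nerve.

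The other TSSs of the members gave few calls of their own. Of 129 tested, 9 were called higher and none lower, where 12.9% of every TSS tested was called higher (530 of 4119) and 11% lower (452). The median of the 129 log2 fold changes was 0.36, and among the 97 tested of ribosomal proteins 5 were called higher with the same median. Most of them were low. When all TSSs of a gene were summed, 42 members were called higher and 6 lower, and the 37 and 6 called at the main TSS were among them.

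Some calls depended on single libraries. Leaving out each of the 6 libraries in turn, 24 of the 32 ribosomal proteins and 6 of the 11 factors kept their call every time. Rps18, Rpl7, Rps27l, Rpl35, Eef1a1, Eif1b, Eif4b, Eif4a2, Eif4g2 and Eif2b3 were among those. Among the other 8, Rpl28, Rps12, Rps10 and Rps14 lost the call without any 1 of 4 libraries and Rpl31 without any 1 of 2. Of the factors, Eif2b4 lost it without any library but control 3, Eif2s2, Eif5b and Eif2d without 4 of the 6 and Eif3f without control 3, cAMP 1 or cAMP 2. The count of members called lower was 3 without control 1 or without cAMP 2, where Eif2s2, Eif5b and Eif2d all dropped out.

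Levels of cell type markers in these libraries moved as well. Of 10 Schwann cell markers listed, 8 had a row, of which 4 rose, 2 fell and 2 did not pass the test. The myelin gene Mbp rose from 215 to 1336 RPM on average, Pmp22, another myelin gene, from 1.29 to 19.5 RPM, and Egr2, a transcription factor of myelination, from 0.0109 to 34.0 RPM. Ngfr, the p75 neurotrophin receptor, fell from 2622 to 794 RPM (limma adjusted p = 4.3e-15) and S100b from 1879 to 1579.7 RPM (limma adjusted p = 0.0018). Sox10 (142 and 126 RPM, limma adjusted p = 0.35) and Erbb3 (49.2 and 44.7 RPM) did not pass. Of 7 fibroblast markers listed, Col1a1 and Pdgfra had a row. Their sum was 790, 891 and 892 RPM in control and 457, 366 and 459 RPM in cAMP, nearly all of it Col1a1, which Schwann cells also make, and Pdgfra was at 0 in all control libraries. The 1 perineurial marker with a row of 4 listed, Itgb4, summed to 0.0458 to 2.87 RPM in control and 3.53 to 5.09 RPM in cAMP. Csf1r, the 1 macrophage marker with a row of 6, was at 0 in all control and cAMP libraries, and none of the 5 endothelial or 3 adipocyte markers had a row. The part of these changes in the rise of the ribosomal proteins was not tested.

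Ribosome biogenesis genes and mitochondrial ribosomal proteins were called no more often than all genes tested. Of the 18 ribosome biogenesis genes tested, 2 rose, 2 fell and the median log2 fold change was −0.14. Polr1d, a subunit shared by RNA polymerases I and III, rose from 190 ± 17.5 to 397 ± 62.5 RPM, and Gar1, a protein of the RNAs that guide pseudouridylation, from 14.6 ± 2.41 to 30.2 ± 5.63 RPM (SD, n = 3). Of 34 mitochondrial ribosomal proteins tested, 4 rose and 2 fell, with a median of 0.19. These shares are not above the 13.5% of all genes called higher or the 13.9% called lower, and are no result about either list. Mrpl51 had a log2 fold change of 0.73 ± 0.22 and Mrpl3 one of −0.69 ± 0.18 (SE, limma adjusted p = 0.018 and 0.0066). Of 6 genes of protein targeting to the ER, Spcs2, a subunit of the signal peptidase, fell from 376 ± 32.9 to 171 ± 1.40 RPM (SD, n = 3) and none rose.

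Cytosolic aminoacyl-tRNA synthetases, which charge tRNAs with amino acids, mostly fell. Of 8 tested, 5 fell and 1 rose, with a median log2 fold change of −0.82, where 13.9% of all genes tested were called lower and 13.5% higher. Mars fell from 64.4 ± 10.5 to 28.9 ± 9.12 RPM and Eprs from 339 ± 26.6 to 157 ± 17.8 RPM (SD, n = 3, limma adjusted p = 0.00071 and 8.4e-08). In the list for the integrated stress response, the pathway that acts through eIF2 phosphorylation, Ddit4 rose from 4.68 ± 3.04 to 259.5 ± 13.2 RPM and Psat1 also rose, whereas its central factor Atf4 fell from 141 ± 21.3 to 68.1 ± 12.6 RPM (SD, n = 3) and Ddit3 fell too, among 5 tested. Of 12 tested genes of mTORC1 and MYC control, 2 rose and none fell, a share of risen genes near that over all genes and no result about the list. Deptor, an inhibitor of mTOR, went from 31.5 ± 7.37 to 129 ± 17.7 RPM and Akt1s1, another negative regulator of mTORC1, from 26.98 ± 2.67 to 62.48 ± 4.24 RPM (SD, n = 3). Myc was at 1.03 and 0.554 RPM on average at its main TSS.

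The comparison of ΔSOX10 clones with parental S16 cells asked which TSSs depend on SOX10. Sox10 itself was at 84.1 RPM in the parental cells and 0.0412 RPM in the clones on average, and Mbp at 322 and 2.92 RPM. No ribosomal protein and no initiation or elongation factor passed the test in either direction, where 1.99% of the 2763 genes tested were called higher and 5.50% lower. At an unadjusted p under 0.05, 4 members were higher, among them Eif2s2, Eif2b3 and Eif4g2, and 5 lower (Rpl26, Rpl7, Rpl27, Rps27l and Rps6ka5). The share of all genes at that threshold is not given here, so these counts are no result about the members. With scaling by TMM or by the median ratio, which moves the median of all TSSs tested from −0.18 to about −0.05 on the log2 scale, 3 members, among them Eif2b3 and Eif4g2, were called higher, as they were by both edgeR tests on recovered reads. Of all 3875 TSSs tested, 92 were called higher with TMM and 93 with the median ratio. The quasi-likelihood test called 82 higher and the exact test 119. These few calls are no result about the members as a set.

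The sign of the ribosomal proteins' median in the clones followed the scaling and gives no direction for the family. The median log2 fold change of the ribosomal proteins was −0.08 in RPM, with 32 of 42 below 0, and 0.08 with TMM scaling, with 17 of 42 below 0. The median of all TSSs tested moved along, from −0.18 to −0.05, and lay below that of the ribosomal proteins in both settings. The 95% interval lay within 1 log2 unit of 0 at 39 of the 42, so that a change of 2-fold or more is outside the interval there. The gene's own cAMP fold change lay above its clone interval at 21 of the 42, of which 19 were among the 32 that rose with cAMP, and inside or below it at the others. The 32 were picked for that rise and the error of the cAMP value is not counted, so this count decides nothing about SOX10. The clone standard errors were 0.16 to 0.21 log2 units at Rps18, Rpl37a, Rpl13 and Rpl35.

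Rps6ka5 was the 1 member called. It had 18.2 and 26.4 RPM in the parental libraries and 9.25, 3.58, 6.53 and 5.24 RPM in the clones, which did not overlap (log2 fold change −1.74 ± 0.41 SE, limma adjusted p = 0.035). The call was lost without either parental library and without clone 1-2, 2-1 or 2-2, and with either pair of clones alone. Rpl26 went from 1148 and 1276 RPM to 656, 842, 879 and 833 RPM (−0.60 ± 0.17 SE, limma adjusted p = 0.074). All 4 clones lay below both parental libraries at Rpl26, which did not pass. Rps27l had 464 and 550 RPM in the parental cells and 318, 433, 306 and 323 RPM in the clones, and among the fits without 1 library it was called lower only without clone 1-2. Another TSS of Rps27l, at 4.73 RPM in the parental cells and 0.00713 RPM in the clones on average, did pass (−2.50 ± 0.35 SE, limma adjusted p = 0.0024), the 1 call among the members' other TSSs.

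Rpl13 (−0.07 ± 0.18 SE), Rpl35 (−0.17 ± 0.21), Rpl37a (−0.04 ± 0.18) and Rps18 (−0.24 ± 0.16) did not pass in the clones. Rpl13 and Rpl37a were above 0 with TMM or median-ratio scaling, but these scalings move all TSSs together, so the sign decides nothing about either gene. Clone 1-2 had fewer of its reads in the table than the other clones (28.7% against 33.4% to 35.1%). Rpl13, for example, had 4920 and 5079 RPM in the parental cells and 4982, 4408, 5623 and 4192 RPM in clones 1-1, 1-2, 2-1 and 2-2, so that the clones spread on both sides of the parental cells.

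The factors that changed with cAMP can be set beside their values in the clones, since the comparisons share no library. Of the 6 that fell with cAMP, 5 had a log2 fold change above 0 in the clones, as had 993 of the 2763 genes tested, and none of the 5 was called in RPM. With TMM scaling, median-ratio scaling, both edgeR tests and DESeq2, Eif2b3 and Eif4g2 were called higher, and with DESeq2 Eif2s2 was as well (0.61, adjusted p = 0.020). Eif2b3 had 28.7 and 19.5 RPM in the parental cells and 39.1, 45.3, 62.3 and 51.7 RPM in the clones (1.01 ± 0.27 SE, limma adjusted p = 0.056), and Eif4g2 had 181 and 160 RPM against 332, 220, 241 and 274 RPM (0.63 ± 0.20 SE, limma adjusted p = 0.10). Eif2s2 (0.45 ± 0.19 SE), Eif2d (0.70 ± 0.32) and Eif5b (0.20 ± 0.21) followed, and Eif4a2 had −0.29 ± 0.19 (SE). The 5 factors that rose with cAMP, Eef1a1 included, had values from −0.05 at Eif3f to −0.33 at Eif2b4, and 1770 of the 2763 genes also lay below 0. With TMM and median-ratio scaling 3 of the 5 were below 0, and Eif3f and Eif4b above it. Of the 2763 genes, 1467 with TMM and 1468 with median-ratio scaling lay below 0, so these signs are no result about the 5 factors.

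**Figure D4:**
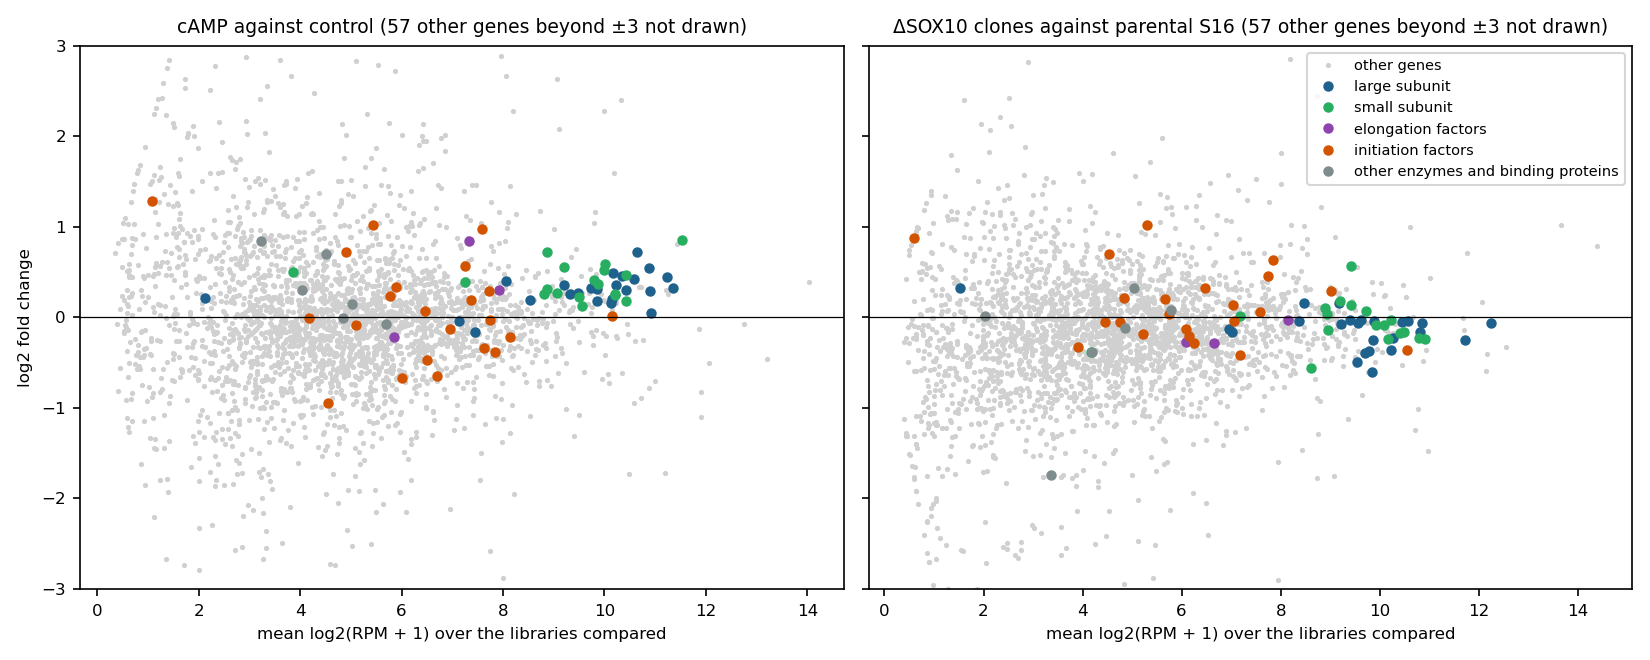
Log2 fold change against mean log2(RPM + 1) for the main TSS of each gene tested, with members coloured by role and other genes in grey, for cAMP against control (left) and ΔSOX10 clones against parental S16 cells (right), and 57 other genes beyond 3 in size left out of each panel. In the left panel the ribosomal proteins with high levels lie above 0, with a median of 0.32 against −0.03 over all genes, and in the right panel they lie around 0, with a median of −0.08 in RPM that becomes 0.08 with TMM scaling.

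Aars, Mars, Yars and Atf4 also took opposite directions in the clones. Of the 8 synthetases tested, Aars, Mars and Yars were called higher in the clones and none lower (median of the 8 log2 fold changes 0.72), and all 3 had fallen with cAMP. Over all genes tested in the clones, 1.99% were called higher and 5.50% lower. The other synthetases were not called in the clones, and Kars was below 0 and Sars above 0 in both comparisons. Yars had 44.7 ± 14.1 RPM in the parental cells (SD, n = 2) and 104 ± 10.5 RPM in the clones (SD, n = 4, limma adjusted p = 0.011). Mars had 52.8 ± 3.82 and 109 ± 26.6 RPM. Atf4 rose from 120 ± 7.78 RPM (SD, n = 2) to 294 ± 46.1 RPM (SD, n = 4, limma adjusted p = 0.0035) and Ddit3 rose as well, of 5 genes tested in that list. Deptor fell from 110 ± 11.3 to 14.5 ± 6.63 RPM, the 1 call among 11 tested genes of mTORC1 and MYC control, which is no result about that list. None of the other TOP or ribosome-associated genes (9 tested), ribosome biogenesis genes (18), ER targeting genes (6) or mitochondrial ribosomal proteins (35) was called in the clones, with median log2 fold changes of −0.14, 0.08, −0.07 and −0.26. The fibroblast markers with a row summed to 2771 and 2201 RPM in the parental cells and 2910, 4080, 5171 and 4388 RPM in the clones, again nearly all Col1a1, and their part in these values was not tested.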

How the data were processed

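Tn5Prime libraries were processed by the authors, per the labels and methods, by trimming with cutadapt 1.14, mapping to rn5 with STAR 2.5.2a, SAMtools 1.9, clustering of read starts with Paraclu and counting per TSS with featureCounts (Subread 1.6.1). The deposited values are RPM per TSS and library, and the authors took gene names from rat or, where none was near, mouse annotation. The 4 deposited columns of the authors' own comparisons (log2 fold changes and adjusted p-values) were not used. Low RPM values were whole multiples of 1 read in 13 libraries (100% of the unrounded values within 0.1 read), which gave each total. In nerve 2 too few low values were present for a firm check, and in 4 S16 libraries 8.59% to 9.35% of values had been rounded to 3 digits. The study's methods used edgeR on counts, but the deposited unit is RPM. The main test was therefore limma 3.58.1 (R 4.3.3, eBayes with trend, no covariates) after adding a pseudocount of 1 RPM and taking log2. A TSS entered a comparison when 2 or more of its 6 libraries exceeded 1 RPM. Fold changes on this scale understate changes of low TSSs. The quasi-likelihood test of edgeR 4.0.16 called 433 TSSs higher and 352 lower in cAMP on recovered reads and its exact test 478 and 389 (limma 530 and 452). The fit was tested on simulated data, and no outcome of that test is given here. P-values for the S16 comparison measure the spread of 4 clones against 2 RNA samples of 1 line. Members and gene lists were chosen with earlier results of these data known. Some genes that this rule names are not reported here. Named are the 5 members highest in nerve, up to 10 called members of each direction and comparison with the largest change, every ribosomal protein that did not rise with cAMP, every factor and every other member, the 3 members with most TSSs and, of each outside list, the 2 called genes with the largest change. Marker lists were of Schwann cells, fibroblasts, perineurial cells, endothelial cells, macrophages, adipocytes and muscle. Promoter sequences are from RefSeq (GRCr8). Alternatives were other pseudocounts, filters, scalings and tools, sums per gene, the replicate block and leaving out each library.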

Additional observations from a re-analysis of the deposited data

Results flagged for a closer look

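Among the 4 ΔSOX10 clones, 1 library stood apart from the other 3 at 4 of the 73 members with a range to test, where chance alone flags about 1 in 20. Clone 2-2 had 2384 RPM at Rpl35 against 1520 to 1606 RPM in the other clones. It had 701 RPM at Rpl31 against 802 to 812 RPM, and 662 RPM at Rpl9 against 571 to 577 RPM. Clone 1-2 had 433 RPM at Rps27l against 306 to 323 RPM.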

How the results depend on the processing

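In cAMP against control, 29 to 42 members were called higher and 3 to 6 lower under the alternatives. Among ribosomal proteins, 24 (edgeR exact test) to 35 (DESeq2, and sums per gene) were called higher and 0 lower. The call of Eif2s2 was lost with both edgeR tests and that of Eif5b with the quasi-likelihood test and with no filter. Leaving out 1 library gave 30 to 36 higher and 3 to 5 lower and a median log2 fold change of 0.25 to 0.30. Same-numbered control and cAMP libraries did not deviate together (correlations 0.0294, 0.00751 and 0.0379), and a replicate block gave 40 higher and 6 lower with a median of 0.29. In the clones, 0 members were lower with a pseudocount of 0.1 RPM, with no filter, with clones 1-1 and 1-2 alone and with clones 2-1 and 2-2 alone. Among ribosomal proteins alone 0 were lower, except 1 without clone 1-2 (Rps27l). Over all members, 3 were higher with median-ratio scaling, TMM scaling and both edgeR tests, and 5 with DESeq2, and the cause was not tested. Without 1 library, 0 to 1 were higher (Eif2b3, without clone 1-1) and 0 to 1 lower. The median over all members in the clones was −0.06, 0.090 with median-ratio scaling, 0.091 with TMM scaling and −0.12 to −0.02 without 1 library.

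Of 648 values in cAMP against control, 17 changed sign, and of 108 in the clones, 14 did. With TMM scaling Rps6kb1 was at 0.0019 in cAMP. In the clones, with median-ratio and TMM scaling, Rpl13 was at 0.083 and 0.084, Rpl37a at 0.112 and 0.113, Rplp0 at 0.103 and 0.104 and Eef1b2 at 0.126 and 0.127. Both scalings moved the median of all TSSs tested from −0.18 to −0.05 as well, so these signs show no change of single genes.
Without 1 library, values near 0 in cAMP ranged from −0.162 to 0.131 (Eif3el1), −0.00018 to 0.031 (Eif5a), −0.043 to 0.143 (Eif3d), −0.234 to 0.075 (Eif2ak1), −0.345 to 0.221 (Rps6kb1), −0.099 to 0.0040 (Rpl3l), −0.224 to 0.074 (Eif2b5), −0.017 to 0.411 (Eif1ad), −0.0021 to 0.392 (Rpl4) and −0.093 to 0.053 (Eif3g). In the clones they ranged from −0.167 to 0.089 (Rpl37a), −0.155 to 0.116 (Eef1b2) and −0.244 to 0.053 (Rplp0).

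Over the whole table, the clones had 64 TSSs called higher and 254 lower. TMM scaling called 92 and 228, median-ratio scaling 93 and 228 and the edgeR quasi-likelihood test 82 and 172. DESeq2 called 164 and 235, the edgeR exact test 119 and 251, a mean of at least 5 RPM 68 and 166, and sums per gene 64 and 165. Without parental 1 there were 36 and 71, and without parental 2 there were 28 and 74. Low TSSs, such as those of Rpl4 and Eif4a1, had standard errors too wide to detect a change of the size seen in the ribosomal proteins.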
